A study of Saccharomyces cerevisiae with 6 samples.

Results

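The messages of 10 yeast genes of trehalose and glycogen metabolism were compared between a *PHO13*-disrupted xylose-fermenting strain and its parent. The genes were *TPS1*, *TPS2*, *TSL1*, *TPS3*, *NTH1*, *NTH2*, *ATH1*, *GSY1*, *GSY2* and *GPH1*. They were taken as a named list by function, and no measured value entered the rule, though earlier results of these data were known when the list was made. They were found on the array by the symbol of their systematic name. All 10 were present among the 6256 genes measured, with 1 probe for each gene.

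YΔGP/XK/XI (*PHO13* disrupted with the KanMX marker) was compared with YΔG/XK/XI. Both were built in the laboratory strain YPH499, an a-type haploid with the mutations *ura3*, *trp1*, *lys2*, *leu2*, *his3* and *ade2*. Both lack *GRE3*, the aldose reductase gene, overexpress *XKS1* (xylulokinase) from the *TDH3* promoter, and carry multiple copies of *xylA*, the xylose isomerase gene of *Orpinomyces* sp., in the δ sequences of the genome. Cells grown aerobically in rich glucose medium were moved to medium with 50 g/L xylose and limited oxygen, and RNA was taken after 9 h. Each strain was measured on 3 single-colour Agilent arrays, 1 for each replicate. Each strain is 1 construct. The labels call the replicates runs, so the p-values below measure the spread between these runs, which may be partly technical.

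Trehalose is a disaccharide and glycogen a branched polymer of glucose. Yeast accumulates both when growth slows, carbon runs short or the cells are stressed. Both pathways start from UDP-glucose. Tps1 joins it to glucose 6-phosphate to make trehalose 6-phosphate, which also restrains hexokinase, and Tps2 removes the phosphate, while Tsl1 and Tps3 are the regulatory subunits of this complex. Nth1, Nth2 and Ath1 split trehalose into glucose. Gsy1 and Gsy2 extend glycogen chains and Gph1 releases glucose 1-phosphate from them. Many of these genes carry stress response elements, are induced by the transcription factors Msn2 and Msn4, and are held down by protein kinase A.

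The targeted gene separated the strains. Log2 signals below are relative to the 75th percentile of the array, and a difference is YΔGP/XK/XI minus YΔG/XK/XI. The 75th percentile was 3782 to 7095 intensity units in YΔGP/XK/XI and 4631 to 7632 in YΔG/XK/XI, against a median background of 21 to 24. The *PHO13* probe was well above background on 0 of 3 YΔGP/XK/XI arrays and on 3 of 3 YΔG/XK/XI arrays, and its signal was at least 82.4-fold lower in YΔGP/XK/XI (limma, adjusted p = 1.09e-06). This bound sets the YΔG/XK/XI mean against the dimmest probe still well above background. *GRE3* was well above background on 0 of 6 arrays. *XKS1* was 4.16 ± 0.10 in YΔGP/XK/XI and 4.61 ± 0.16 in YΔG/XK/XI (SD, n = 3 each, difference -0.45, adjusted p = 0.0112). The a-cell genes *STE2*, *MFA1* and *MFA2* were well above background on all 6 arrays, and *MFA1* and *MFA2* were 0.32 and 0.48 higher in YΔGP/XK/XI (adjusted p = 0.0279 and 0.00758). Of the α-cell genes, *STE3* was too, at -4.19 in YΔGP/XK/XI and -4.18 in YΔG/XK/XI, and whether this signal is its own message was not tested, while *MFALPHA1* and *MFALPHA2* were each above background on 1 array of YΔGP/XK/XI and on 0 of YΔG/XK/XI.

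None of the 10 trehalose and glycogen genes passed the test between the strains. By limma with Benjamini-Hochberg adjustment over all genes, 0 of 10 were called at an adjusted p under 0.05, and 0 of 10 had an unadjusted p under 0.05. Over the whole array 1852 of 6256 genes (29.6%) were called, 1033 of them higher (16.5%) and 819 lower (13.1%), and 42.1% had an unadjusted p under 0.05. The share higher among the called genes was 55.8%, 47.9% after quantile normalization and 42.4% after scaling to the array median. The values of the strains did not overlap for 1 of 10 genes, *GSY1*, against 46.6% over the array. The difference was below 0 for 8 of the 10 and above 0 for *GSY2* and *GPH1*. Its median was -0.10, against 0.01 over all genes, and the median size was 0.129, against 0.181. The RNA came from whole cultures, in which fewer expressing cells and less RNA per cell cannot be told apart.

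All 10 probes were bright. Each was well above background on all 6 arrays, and their background-subtracted signal was between 2131 intensity units, for *ATH1*, and 130300 units, for *GPH1*. The spots of a probe differed by an SD of 0.0349 to 0.0596 (log2, median over the arrays), less than replicate arrays of a strain did for most of these genes, whose median SD was 0.0826 in YΔGP/XK/XI and 0.105 in YΔG/XK/XI. The standard error of the difference was 0.0770 to 0.150 for the 10 genes, and its median over all genes was 0.0878. Precision is bounded by the array number (3 in each strain). In data simulated with the spread of these arrays, 85 of 6256 genes were changed by 0.5 on the log2 scale and 115 by 1. Of the 85, 64 were called. The simulated noise was independent between genes and arrays. Far fewer genes were changed there than the 29.6% called in these data, which alters the adjusted threshold. The simulated rate is therefore not the detection rate for the 10 genes. The 95% intervals of all 10 genes lay within 1.5-fold either way, between 0.734-fold and 1.46-fold, which was true of 76.3% of all genes. On the whole array the smallest change called was 0.204 and the median change of called genes was 0.436. The size of the difference was below 0.204 for every one of the 10 except *GPH1*.

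**Figure D1:**
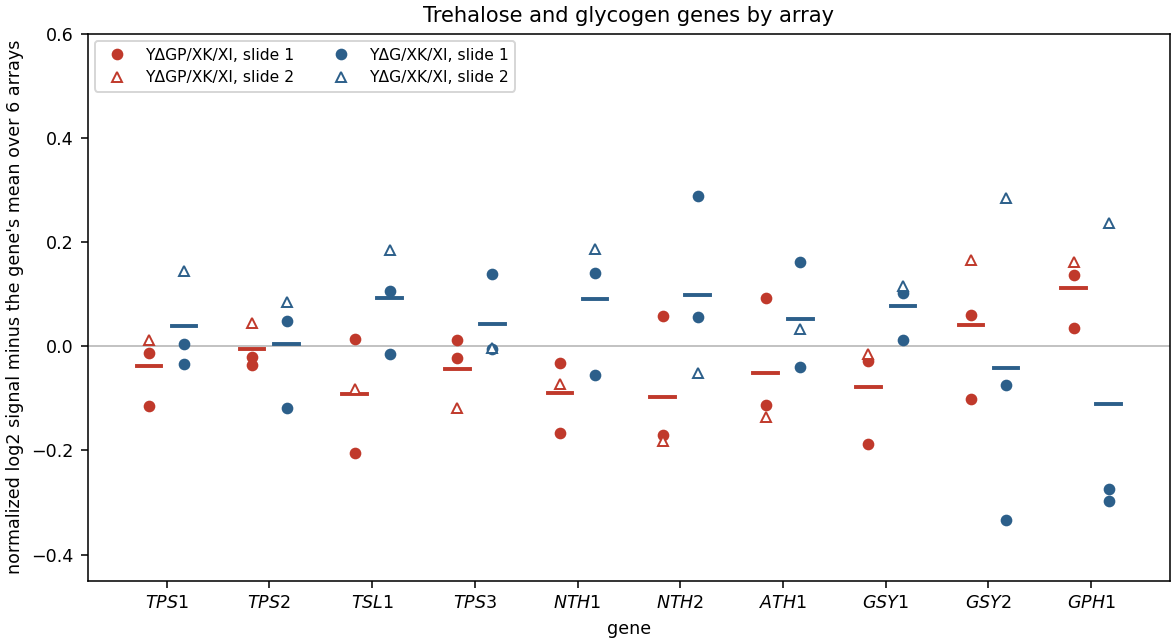
Log2 signal of the 10 genes on each array (vertical axis, relative to the 75th percentile of the array and centred on the mean of the gene over the 6 arrays), with red for YΔGP/XK/XI, blue for YΔG/XK/XI, circles for slide 1, triangles for slide 2 and bars for the strain means. Only for *GSY1* do the strains not overlap, and the YΔG/XK/XI triangle stands well above both circles of its strain for *GSY2* and *GPH1*.

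The 4 genes of the trehalose synthase complex all had a lower mean in YΔGP/XK/XI, and none passed the test. *TPS1*, for trehalose-6-phosphate synthase, had 3.11, 3.21 and 3.23 in YΔGP/XK/XI, against 3.22, 3.19 and 3.36 in YΔG/XK/XI. The highest value was in YΔG/XK/XI and the lowest in YΔGP/XK/XI, and the others were interleaved. The difference was -0.08 ± 0.0791 (SE, adjusted p = 0.492). *TPS2*, for the phosphatase that finishes the synthesis, had 1.55, 1.54 and 1.62 in YΔGP/XK/XI, against 1.62, 1.46 and 1.66 in YΔG/XK/XI. The YΔGP/XK/XI values all lay within the range of YΔG/XK/XI, and the difference of -0.01 ± 0.0792 (adjusted p = 0.939) was the smallest of the 10 in size. Its interval was 0.876-fold to 1.13-fold.

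Both regulatory subunits had a lower mean in YΔGP/XK/XI. *TSL1* had 0.84, 1.06 and 0.96 in YΔGP/XK/XI, against 1.15, 1.03 and 1.23 in YΔG/XK/XI. A single pair of arrays overlapped, replicate 2 of each strain. The difference was -0.18 ± 0.0876 (adjusted p = 0.148). *TPS3*, its paralog, had 0.63, 0.67 and 0.54 in YΔGP/XK/XI, against 0.79, 0.65 and 0.65 in YΔG/XK/XI. Here replicate 2 of YΔGP/XK/XI lay above 2 of the YΔG/XK/XI arrays, and the difference was -0.09 ± 0.0770 (adjusted p = 0.425). The difference between the strains in *TSL1* minus *TPS3* was -0.10, which an exact two-sided permutation test did not separate (p = 0.6, adjusted p = 0.75 over the 5 pairs compared). With 3 arrays against 3 this test cannot give a p below 0.1.

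The 3 trehalase genes all had a lower mean in YΔGP/XK/XI, and none passed the test. *NTH1*, for the main neutral trehalase of the cytosol, had 2.08, 1.95 and 2.04 in YΔGP/XK/XI, against 2.25, 2.06 and 2.30 in YΔG/XK/XI. Replicate 2 of YΔG/XK/XI fell just below replicate 1 of YΔGP/XK/XI, and this was the only overlap. The difference was -0.18 ± 0.0866 (adjusted p = 0.148). *NTH2*, its paralog, had 0.42, 0.20 and 0.18 in YΔGP/XK/XI, against 0.65, 0.42 and 0.31 in YΔG/XK/XI. In both strains replicate 1 was the highest and replicate 3 the lowest, and the ranges overlapped. The difference of -0.20 ± 0.109 (adjusted p = 0.206) had an interval of 0.734-fold to 1.04-fold, and it was -0.10 when replicate 1 of YΔG/XK/XI was left out. *ATH1*, for the acid trehalase that acts on trehalose outside the cytosol, had -0.81, -0.60 and -0.83 in YΔGP/XK/XI, against -0.53, -0.73 and -0.66 in YΔG/XK/XI. Replicate 2 of YΔGP/XK/XI stood above 2 of the YΔG/XK/XI arrays. The difference was -0.10 ± 0.0913 (adjusted p = 0.419).

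The trehalase paralogs did not separate from each other beyond the spread between arrays, nor did the first enzyme of synthesis from the main enzyme of breakdown. The difference between the strains was 0.02 in *NTH1* minus *NTH2* (exact permutation p = 0.9, adjusted p = 0.9) and 0.10 in *TPS1* minus *NTH1* (exact permutation p = 0.3, adjusted p = 0.5). The per-array values overlapped in both.

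The glycogen synthase genes had differences of opposite sign. *GSY1* had 2.82, 2.98 and 2.99 in YΔGP/XK/XI, against 3.11, 3.02 and 3.13 in YΔG/XK/XI. Every YΔGP/XK/XI array was below every YΔG/XK/XI array, though the nearest of them were close, at 2.99 and 3.02. The difference was -0.15 ± 0.0782 (adjusted p = 0.169). *GSY2*, for the synthase that does most of the work as cells enter stationary phase, had 1.96, 2.12 and 2.22 in YΔGP/XK/XI, against 1.99, 1.73 and 2.34 in YΔG/XK/XI. The YΔGP/XK/XI values lay inside the range of YΔG/XK/XI, whose SD of 0.311 was the widest of the 10 genes. The difference was 0.08 ± 0.150 (adjusted p = 0.707). The change in *GSY2* minus *GSY1* was 0.24 with overlapping arrays (exact permutation p = 0.3, adjusted p = 0.5). Hybridization of a paralog's message to the *GSY1*, *GSY2*, *NTH1*, *NTH2*, *TSL1* or *TPS3* probe was not tested.

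*GPH1*, for glycogen phosphorylase, had the largest difference of the 10 in size in the main fit, and another gene of the 10 did in 5 of 17 alternatives. It had 4.10, 4.20 and 4.22 in YΔGP/XK/XI, against 3.79, 3.77 and 4.30 in YΔG/XK/XI. The YΔGP/XK/XI arrays were close together and above replicates 1 and 2 of YΔG/XK/XI, but replicate 3 of YΔG/XK/XI was the highest of all 6. The difference was 0.22 ± 0.139, or 1.17-fold with an interval of 0.935-fold to 1.46-fold (adjusted p = 0.259). Of all genes, 40.6% differed by more. *GSY2* minus *GPH1*, synthesis minus breakdown of glycogen, differed by -0.14 between the strains with overlapping arrays (exact permutation p = 0.2, adjusted p = 0.5).

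**Figure D2:**
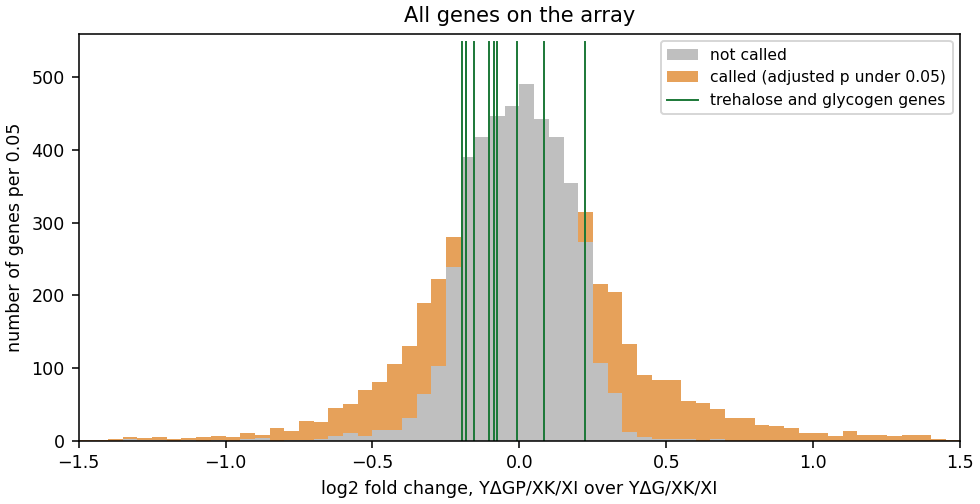
Number of genes in each 0.05-wide step of the log2 difference between YΔGP/XK/XI and YΔG/XK/XI (horizontal axis, 32 genes beyond ±1.5 not drawn), with called genes in orange, the others in grey and the 10 trehalose and glycogen genes as green lines. The green lines run between -0.20 and 0.22, in the range where most genes were not called.

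*GPH1*, not called in the main fit, was called in 3 of 17 alternatives. When replicate 3 of YΔG/XK/XI was left out, the difference was 0.40 and passed the test (adjusted p = 0.0112). When replicate 2 of that strain was left out, it was 0.13 (adjusted p = 0.555). It also passed the test after quantile normalization (0.33, adjusted p = 0.0303). The adjusted p ranged from 0.0112 to 0.561 over all the alternatives tried. Replicates 1 and 2 of both strains shared slide 1, and replicate 3 of both was on slide 2. On slide 1, with 2 arrays per strain, the *GPH1* means were 4.15 in YΔGP/XK/XI and 3.78 in YΔG/XK/XI, and the difference of 0.37 passed in a fit of these 4 arrays alone (adjusted p = 0.0317). This fit was added after the data were seen. It also leaves out replicate 3 of YΔG/XK/XI, so its call is not independent of the call without that array. On slide 2, with 1 array per strain, *GPH1* was 4.22 in YΔGP/XK/XI and 4.30 in YΔG/XK/XI, a difference of -0.07. With slide as a block over all 6 arrays the difference was not called (adjusted p = 0.120). *GSY2* changed sign in the same way, with 0.18 on slide 1 and -0.12 on slide 2, and it was -0.06 over the 5 arrays that remain when replicate 2 of YΔG/XK/XI is left out. Over the 10 genes, 7 differences were below 0 on slide 1, against 47.8% of all genes, and 10 on slide 2, against 50.1%.

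Other carbohydrate and stress genes were high on this array too. Replicate 3 of YΔG/XK/XI gave the highest value of the 6 arrays for 7 of the 10 genes, a count that was not made over all genes. Set against the mean of replicates 1 and 2 of its own strain, replicate 3 was 0.08 higher for *GPH1* in YΔGP/XK/XI and 0.52 higher in YΔG/XK/XI. For *GSY2* it was 0.19 higher in YΔGP/XK/XI and 0.49 higher in YΔG/XK/XI. In YΔG/XK/XI only 1.79% of all genes had a larger shift than *GPH1* and 2.08% a larger shift than *GSY2*. The other 8 genes had shifts between -0.13 and 0.09 in YΔGP/XK/XI and between -0.22 and 0.16 in YΔG/XK/XI.

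Among the other enzymes, *GLG2* (glycogenin) was 0.05 higher on replicate 3 in YΔGP/XK/XI and 0.73 higher in YΔG/XK/XI, and *PGM2* (phosphoglucomutase) was 0.04 higher in YΔGP/XK/XI and 0.47 higher in YΔG/XK/XI. The median shift of the 8 other enzymes was 0.04 in YΔGP/XK/XI and 0.18 in YΔG/XK/XI. That of 17 general stress genes was 0.13 in YΔGP/XK/XI and 0.25 in YΔG/XK/XI. The shift was above 0 in both strains for most of these genes. In YΔGP/XK/XI this held for 7 of 8 other enzymes and 14 of 17 stress genes, against 49.6% of all genes, and in YΔG/XK/XI for 8 of 8 and 16 of 17, against 50.2%. Replicate 3 is the only array of its strain on slide 2, so slide and culture cannot be told apart within a strain. The part of this array's stress gene level in the *GPH1* difference was not tested.

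**Figure D3:**
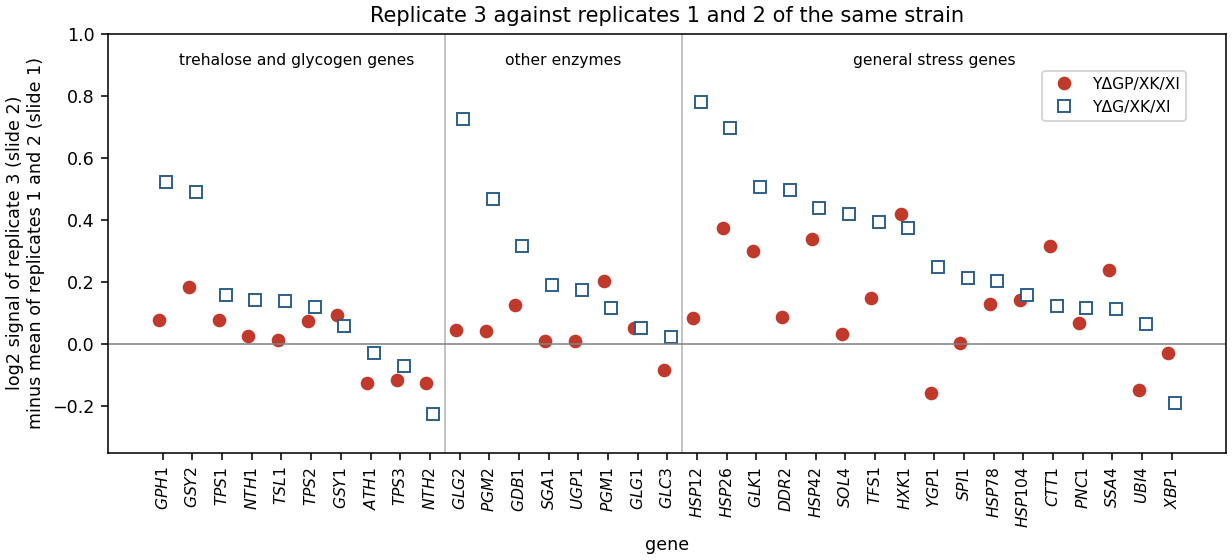
Log2 signal of replicate 3 (slide 2) minus the mean of replicates 1 and 2 (slide 1) of the same strain, for the 10 genes, 8 other enzymes and 17 general stress genes, with filled red circles for YΔGP/XK/XI and open blue squares for YΔG/XK/XI. *GPH1* and *GSY2* lead the 10 genes in YΔG/XK/XI, at 0.52 and 0.49, as *GLG2* at 0.73 and *HSP12* at 0.78 lead the other groups.

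Genes on any list used here, *PGM2* among them, were left out of a search for profiles like that of *GPH1*. Of the others well above background on all 6 arrays, *NNR1*, *APE1*, *YBP2*, *GUS1* and *FMP16* followed it most closely. After each profile was centred on its own mean, these differed from *GPH1* by a root mean square of 0.0507, 0.0552, 0.0588, 0.0616 and 0.0671 on the log2 scale. *NNR1* encodes a repair enzyme for hydrated NADH and NADPH, *APE1* a vacuolar aminopeptidase and *GUS1* the glutamyl-tRNA synthetase. *NNR1* had 2.13, 2.37 and 2.31 in YΔGP/XK/XI, against 1.84, 1.88 and 2.45 in YΔG/XK/XI. As with *GPH1*, replicate 3 was far above the other 2 in YΔG/XK/XI, a likeness that the search itself selected for. The nearest of the other 9 trehalose and glycogen genes was *GSY2*, at 0.106, and the furthest was *NTH2*, at 0.351.

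The remaining enzymes of glycogen did not pass the test either, with 0 of 5 called, against 29.6% of all genes. *GLG1* and *GLG2* encode the glycogenins, the self-glucosylating primers, and differed by 0.02 and 0.23 (adjusted p = 0.884 and 0.464). The *GLG2* difference was 0.03 when replicate 2 of YΔG/XK/XI was left out and 0.47 when replicate 3 was, and neither was called (adjusted p = 0.928 and 0.0882). *GLC3*, the branching enzyme, differed by -0.06 and *GDB1*, the debranching enzyme, by -0.09 (adjusted p = 0.620 and 0.642). *SGA1*, the glucoamylase known from sporulating cells, had -0.72, -0.73 and -0.71 in YΔGP/XK/XI, against -0.50, -0.63 and -0.37 in YΔG/XK/XI. Its strains did not overlap, as for 46.6% of all genes, and its difference of -0.22 missed the threshold (adjusted p = 0.0793). It passed after quantile normalization (adjusted p = 0.0449), after scaling to the median (adjusted p = 0.0400) and with replicate 2 of YΔG/XK/XI left out (adjusted p = 0.0499).

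The genes that supply UDP-glucose were not called, with 0 of 3, against 29.6% of all genes. *PGM1* and *PGM2*, for the minor and major phosphoglucomutase, differed by 0.04 and 0.21 (adjusted p = 0.767 and 0.265), and *UGP1*, for UDP-glucose pyrophosphorylase, by 0.07 (adjusted p = 0.535). *PGM2* had 1.78, 1.96 and 1.91 in YΔGP/XK/XI, against 1.53, 1.51 and 1.99 in YΔG/XK/XI. As with *GPH1*, 2 YΔG/XK/XI arrays lay below all those of YΔGP/XK/XI and replicate 3 lay above them. The *PGM2* difference was 0.36 and passed the test (adjusted p = 0.0202) when this array was left out.

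**Figure D4:**
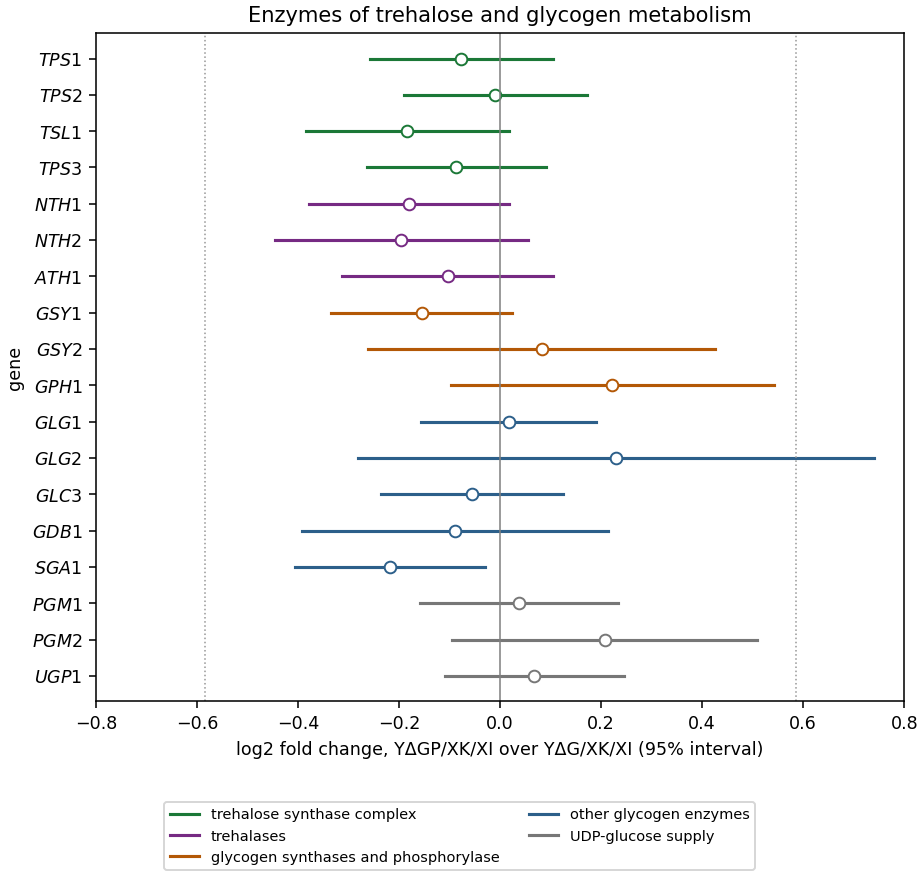
Log2 difference between YΔGP/XK/XI and YΔG/XK/XI (points) with its 95% interval from limma (lines) for the 10 genes and 8 other enzymes, coloured by role, with dotted lines at 1.5-fold either way. All points are open because no gene was called, and *SGA1* is the one gene whose unadjusted interval leaves out 0.

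Among the genes that act on these enzymes, *PIG1* was called. Of the 14 genes for the phosphatase and kinases of glycogen synthase, 1 rose and 13 did not pass the test. Over all genes 29.6% were called. *PIG1*, for a subunit that may direct the Glc7 phosphatase to glycogen synthase, had -3.92, -3.61 and -3.97 in YΔGP/XK/XI, against -4.55, -4.56 and -4.63 in YΔG/XK/XI. Every YΔGP/XK/XI array was above every YΔG/XK/XI array, and the difference was 0.75 ± 0.103, or 1.68-fold (adjusted p = 0.00127). *GAC1*, for the main subunit of this kind and named after its values were seen, differed by 0.27 (adjusted p = 0.0595), with arrays that did not overlap. It was called with an intensity trend (adjusted p = 0.0346) and when replicate 3 of YΔG/XK/XI was left out (0.33, adjusted p = 0.0427). The median over the 14 genes was 0.04, and the strains did not overlap for 2 of the 14, against 46.6% of all genes. Of the 4 trehalase regulators, which code for proteins that bind or restrain Nth1, 0 were called and the median was 0.02. The strains did not overlap for 1 of the 4, against 46.6% of all genes.

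Both cyclic AMP phosphodiesterase genes fell in YΔGP/XK/XI. These enzymes break down cyclic AMP, the activator of protein kinase A. *PDE2*, the high-affinity enzyme, had -1.06, -1.02 and -1.16 in YΔGP/XK/XI, against -0.50, -0.54 and -0.41 in YΔG/XK/XI (difference -0.60 ± 0.0752, adjusted p = 8.0e-04). *PDE1*, the low-affinity enzyme, had 0.81, 0.87 and 0.95 in YΔGP/XK/XI, against 1.24, 1.17 and 1.30 in YΔG/XK/XI (difference -0.36 ± 0.0738, adjusted p = 0.00809). Neither gene had overlapping strains, and both calls stood in all the alternatives run. *PDE1* and *PDE2* were the 2 called of 11 genes for protein kinase A and stress transcription factors, against 29.6% of all genes. The strains did not overlap for 3 of the 11, against 46.6% of all genes, and the median of the 11 was -0.001. *MSN2* and *MSN4*, named after their values were seen, differed by 0.07 and 0.26 (adjusted p = 0.509 and 0.0866). *MSN4* passed in the fits with a block for the slide (adjusted p = 0.0396) and for the replicate (adjusted p = 0.0402).

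Of 17 general stress genes, 1 rose, 3 fell and 13 did not pass the test, with a median of -0.12. Over all genes 29.6% were called. *SSA4*, for an inducible Hsp70 chaperone, had 3.96, 3.79 and 4.11 in YΔGP/XK/XI, against 4.38, 4.43 and 4.52 in YΔG/XK/XI (difference -0.49, adjusted p = 0.00650). *CTT1*, for cytosolic catalase, had 1.28, 0.45 and 1.18 in YΔGP/XK/XI, against 1.76, 1.58 and 1.79 in YΔG/XK/XI (difference -0.74, adjusted p = 0.0241). *SPI1*, for a cell wall protein induced at low growth, differed by -0.39 (adjusted p = 0.0216). The strains did not overlap for any of the 3, which held for 9 of the 17 and for 46.6% of all genes. *YGP1*, for a secreted glycoprotein made under starvation, was 0.31 higher (adjusted p = 0.0452).

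Of these 4, the *SSA4* call stood in all the alternatives run. The *CTT1* call was lost when replicate 1 or replicate 3 of YΔG/XK/XI was left out (adjusted p = 0.0758 and 0.0696) and on slide 1 alone (adjusted p = 0.0785). With replicate 2 of YΔGP/XK/XI left out, *CTT1* was still called and its difference was -0.48 (adjusted p = 0.00892). The *SPI1* call was lost on slide 1 alone (adjusted p = 0.110) and when replicate 1 or 3 of YΔGP/XK/XI or replicate 2 or 3 of YΔG/XK/XI was left out (adjusted p up to 0.0743). The *YGP1* call was lost in 7 alternatives (adjusted p up to 0.137). *HSP12*, for a small stress protein and named after its values were seen, was 1.96 ± 0.05 in YΔGP/XK/XI and 2.44 ± 0.46 in YΔG/XK/XI (SD, n = 3 each, adjusted p = 0.0975), with arrays that did not overlap. It passed with a block for the slide (adjusted p = 0.0310) or the replicate (adjusted p = 0.0479). It also passed after quantile normalization (adjusted p = 0.0490) and with replicate 2 of YΔG/XK/XI left out (adjusted p = 0.0389). Its difference of -0.48 was -0.23 when replicate 3 of YΔG/XK/XI was left out and -0.25 on slide 1 alone, and neither was called (adjusted p = 0.102 and 0.118).

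**Figure D5:**
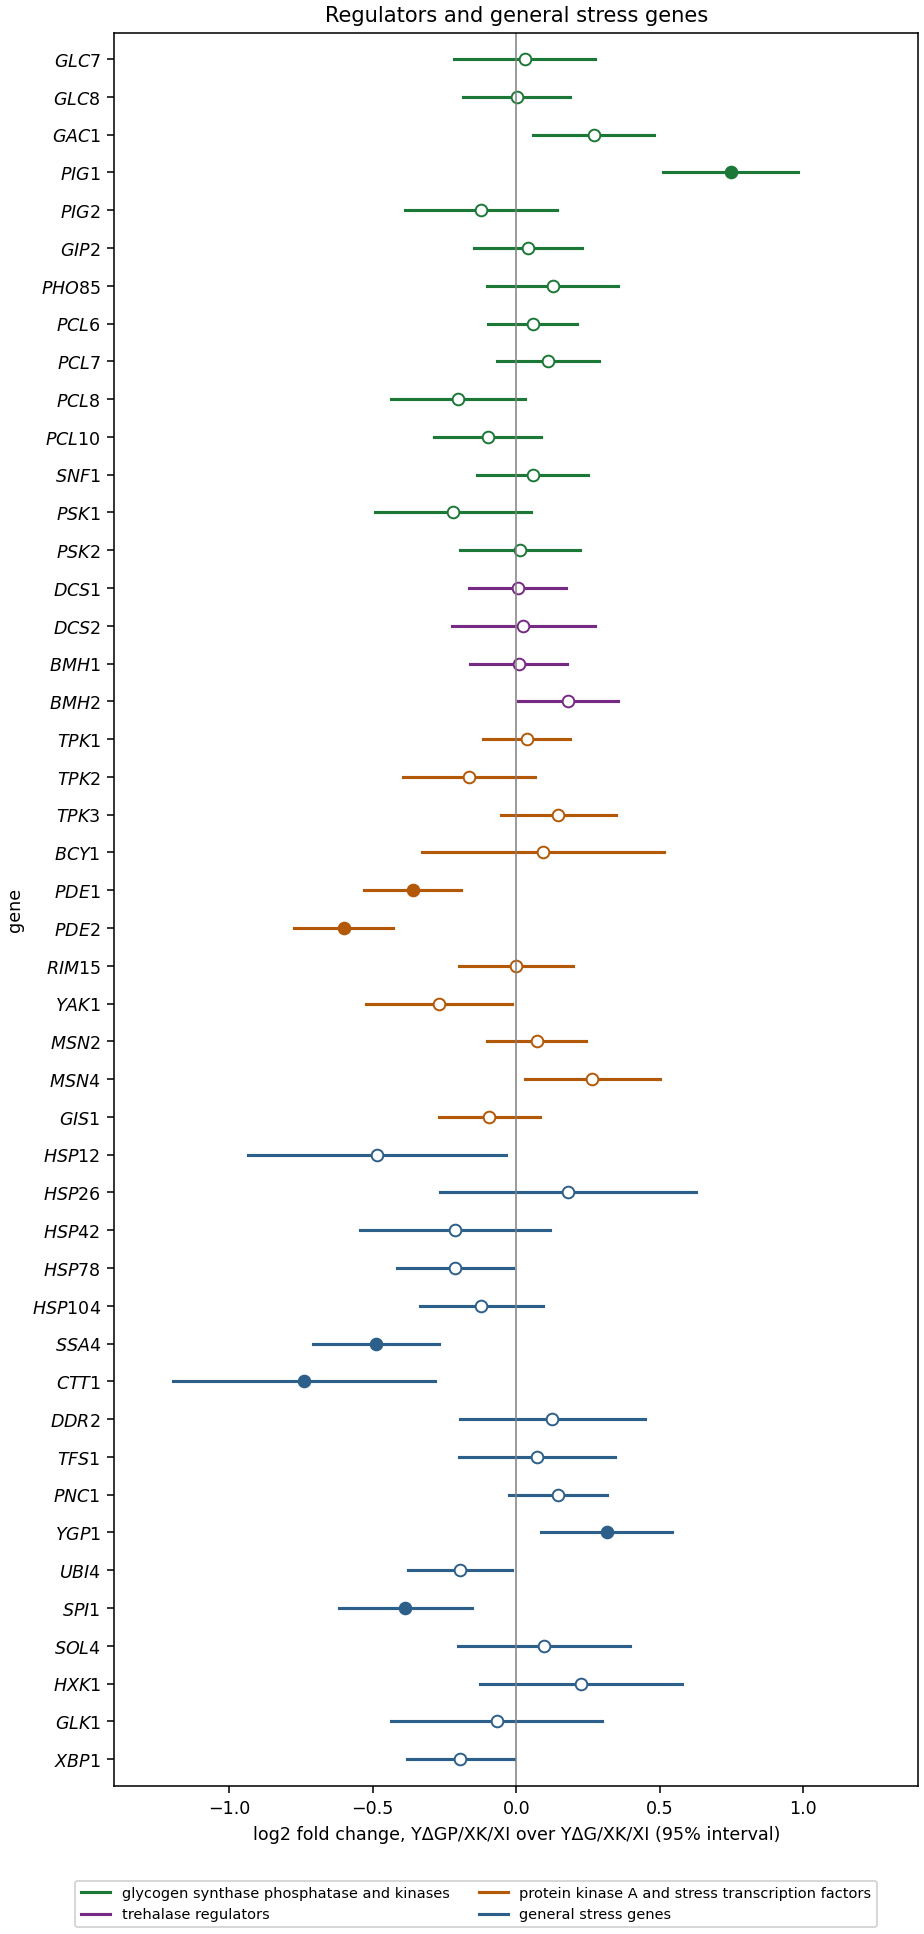
Log2 difference between YΔGP/XK/XI and YΔG/XK/XI with its 95% interval for 46 regulators and general stress genes, filled where called at an adjusted p under 0.05 and open otherwise, coloured by list. *PIG1* at 0.75 and *YGP1* at 0.31 are the filled points above 0, and *PDE1*, *PDE2*, *SSA4*, *CTT1* and *SPI1* are those below 0.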

How the data were processed

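RNA of 6 samples, 3 xylose fermentation runs of each strain, was measured on single-colour Agilent arrays. The authors deposited Feature Extraction (version 10.1.1.1) output with background-subtracted intensity for each spot, and a log2 table, which was used as an alternative. That table follows a shift to the 75th percentile and centring of each probe (r at least 0.9999 with the values used here). Its authors normalized it per chip in GeneSpring GX. The genome build behind the probes is not given in the sources used here, so no coordinates are printed.

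The intensity of the 7 spots of a probe was converted to log2 and averaged without outlier spots (304 to 466 per array), and each array was shifted to its 75th percentile. Saturated spots numbered 0. A probe was well above background where at least 4 spots were so marked. The R64 assembly, used for names only, held 5756 of the 6256 systematic names. Strain differences were fitted in limma 3.58.1 under R 4.3.3 (lmFit, eBayes, Benjamini-Hochberg over 6256 genes, prior degrees of freedom 4.29), and called at an adjusted p under 0.05. The comparison was tested on simulated data, where 64 of 85 genes changed by 0.5 and 109 of 115 changed by 1 (log2) were called. All other genes were left unchanged there. Pairs of genes were compared by an exact permutation test of per-array differences.

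The 10 genes and the lists were chosen with earlier results of these data known. Lists covered other glycogen enzymes, UDP-glucose supply, glycogen synthase phosphatase and kinases, trehalase regulators, protein kinase A and stress transcription factors, general stress genes, mating type markers and strain checks. Named genes are the 10, all other enzymes, strain checks, up to 4 called genes per other list and 5 profiles near that of *GPH1*. These 5 were the nearest among genes outside all lists that were well above background on all 6 arrays. Deviations of same-numbered replicates 1, 2 and 3 from their strain means correlated at 0.0656, 0.301 and 0.415. Those of differently numbered replicates correlated at -0.48 to 0.13, so replicates 2 and 3 were more alike across strains when their numbers matched. Replicate 3 of both strains also shared a slide. The main fit took no pairing, and a block for replicate was an alternative. Alternatives covered background correction by normexp (offset 50, on median signals), quantile or median scaling, a filter on dim probes, spot summary and outliers, an intensity trend, the deposited log2 table, a block for replicate or for slide, each array left out and, added after the data were seen, slide 1 alone.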

Additional observations from a re-analysis of the deposited data

How the results depend on the processing

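Over 17 alternatives each, *TPS1*, *TSL1*, *TPS3*, *NTH1*, *NTH2*, *ATH1* and *GSY1* kept their sign and were not called. The number of the 10 genes called was 0, except for 1 (*GPH1*, higher) after quantile normalization (0.33), on slide 1 alone (0.37) and without replicate 3 of YΔG/XK/XI (0 to 1 with single arrays left out, *GPH1* 0.13 to 0.40). Signs changed for *TPS2* on slide 1 alone (0.006068) and with arrays left out (-0.0706 to 0.0305), and for *GSY2* with arrays left out (-0.0637 to 0.25). Called genes numbered 1178 to 1661 with arrays left out (487 to 698 lower), fewest without replicate 1 of YΔG/XK/XI, and 520 were lower on slide 1 alone. The difference in *NTH1* minus *NTH2* was -0.0558 to 0.14 with arrays left out.

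With the replicate block, 2362 genes and 0 of the 10 were called, and *NTH2* came nearest of the 10 (adjusted p = 0.0504). The list of protein kinase A and stress transcription factors then had 4 called genes in place of 2. The replicate block moved no other list by over 1.5 times. General stress genes had 7 called with slide as a block, 2 on slide 1 alone and 2 to 3 with arrays left out. Other glycogen enzymes had 1 called after quantile normalization, 1 after median scaling and 0 to 1 with arrays left out, UDP-glucose supply had 0 to 1 and phosphatase and kinases 1 to 2 with arrays left out, and 2 with an intensity trend. *PGM1* was -0.0690 after quantile normalization, -0.0223 after median scaling and -0.0297 to 0.0766 with arrays left out. *GLG1* was -0.0434 after median scaling and -0.0372 to 0.0529 with arrays left out, and *GDB1* -0.25 to 0.0169. The causes were not tested. All probes of the 10 genes were well above background on all 6 arrays.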
